A study of Mus musculus with 6 samples.

Results

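Pyruvate kinase makes pyruvate, and a small set of enzymes and carriers sets where that pyruvate goes. Levels of 10 of those genes were read from RNA-seq of primary mouse chondrocytes, the cells of cartilage, in which Pkm was the target of an siRNA. The genes were chosen by name: Pkm and Pklr (pyruvate kinases), Ldha and Ldhb (lactate dehydrogenase subunits), Mpc1 and Mpc2 (subunits of the mitochondrial pyruvate carrier), Pdha1 (a pyruvate dehydrogenase subunit), and Pdk1, Pdk2 and Pdk4 (pyruvate dehydrogenase kinases). All 10 were found among the 55416 genes of the deposited table. Of these, 9 passed the filter on low counts together with 15269 genes in all, and Pklr did not.

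The study transfected cultured chondrocytes with a scrambled control siRNA (siNC, 3 libraries) or an siRNA against Pkm2 (siPkm2, written siPKM2 in the sample titles, 3 libraries), both in wild type cells. According to the labels the cells came from neonatal mouse knee joints, while the study's supplement describes isolation from adult mice, and no age is therefore given for the groups here. The genotype labels of the siPkm2 libraries numbered 2 and 3 name a knockdown of PKM3 and PKM4, and the groups used here follow the titles. The sources do not say whether the libraries of a group came from separate animals or cultures, so p-values measure only the spread between these libraries.

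Total counts ranged from 22317065 to 25691096 per library. Libraries with the same replicate number deviated together from their group means (Pearson r across genes 0.65 to 0.76, against at most 0.16 between different numbers). Because the deviations of the 3 libraries of a group sum to 0, part of that contrast is built in. Each result is given without and with the replicate number as a block. Both libraries numbered 2 stood apart. The summed TPM (a level per transcript length, scaled to one total in each library) of 10 chondrocyte markers was 4090 in siNC and 5470 in siPkm2 in those libraries and between 15700 and 19900 in the other 4. The 6 macrophage markers summed to 118 and 87.6 TPM in them and to between 10.6 and 26.4 TPM in the others. The 6 interferon response genes summed to 22.1, 1430 and 45.0 TPM in siNC 1 to 3. In siPkm2 1 to 3 they summed to 1090, 2550 and 727 TPM, higher within each replicate number, while the group ranges overlapped. Of the other marker lists, 6 skeletal muscle genes summed to 13.4 to 15.9 TPM in siNC and 4.74 to 8.60 TPM in siPkm2, 6 fibroblast and synovium genes to 1300 to 2610 and 924 to 2150 TPM, and 6 erythroid genes to 10.4 to 30.5 and 13.2 to 15.9 TPM. The 4 hepatocyte genes summed to 1.54 to 3.56 and 1.71 to 2.33 TPM, and the 4 endothelial genes to 0.24 to 0.79 TPM over all libraries. No gene of these lists was at 0 in all 6 libraries. The part of these differences in the results was not tested.

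As background, pyruvate kinase transfers a phosphate from phosphoenolpyruvate to ADP at the last step of glycolysis. The Pkm gene gives the PKM1 and PKM2 transcripts by the choice between mutually exclusive exons, and Pklr encodes the liver and red blood cell enzymes. Lactate dehydrogenase turns pyruvate into lactate and back, the carrier takes pyruvate into the mitochondrion, and pyruvate dehydrogenase turns it there into acetyl-CoA. The kinases phosphorylate and switch off pyruvate dehydrogenase. Cartilage has no blood vessels, and chondrocytes rely strongly on glycolysis.

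The siRNAs are shown first, because they define the perturbation and because part of their sequence also occurs in the mRNAs of other enzymes described here. The study's supplement lists 3 siRNAs against Pkm2 and states that the third was chosen, but does not tie a number to the sequenced cultures. The guide (antisense) strands are written 5′ to 3′ with the seed, bases 2 to 8, in capitals.
siNC: aCGUGACAcguucggagaatt
siPkm2 #1: aUGGUACAaaugaugccagtt
siPkm2 #2: aCAUUCUUgauggucucugtt
siPkm2 #3: uGUUUCUCcagacagcaugtt

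The 19-base targets of all 3 siPkm2 strands were found in coding exons of Pkm by matching the siRNAs to GENCODE M21 transcripts on GRCm38. They lie on the plus strand of chromosome 9, in exon 2 for siPkm2 #1 (chr9:59665346-59665364), in exon 4 for siPkm2 #2 (chr9:59668556-59668574) and in exon 8 for siPkm2 #3 (chr9:59672010-59672028), counting exons along Pkm-201. The target of siPkm2 #3 is present in 4 of the 11 annotated Pkm transcripts, against 10 for siPkm2 #1 and 9 for siPkm2 #2. Those 4 are the protein-coding Pkm-201 and Pkm-202 and the retained-intron transcripts Pkm-203 and Pkm-205. The supplement names exon 10 as the one specific to PKM2, and none of the 3 targets lies in that exon. The siNC strand matched no transcript over 19 bases. The other pyruvate kinase gene, Pklr, holds a stretch that differs from the siPkm2 #3 target at 2 of 19 bases, in capitals in the lines that follow, whereas the closest stretch in each of the other 8 genes differs at 6 to 8.
Target of siPkm2 #3 in Pkm: catgctgtctggagaaaca
Closest stretch in Pklr: catgctgtctggagaGacC

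Pkm mRNA was 5.7-fold lower in the siPkm2 libraries than in the siNC libraries, and Pkm moved from a level next to that of Ldha to one far below it. Its estimated counts were 58311, 67876 and 38239 in siNC 1, 2 and 3 and 7213, 13895 and 6767 in siPkm2 1, 2 and 3. Its TPM values were 1654, 2209 and 1293 in siNC and 245, 428 and 231 in siPkm2. The groups did not overlap, and library 2 was the highest of each group. By TPM rank Pkm stood between 54th and 132nd of all genes in the siNC libraries and between 331st and 599th in the siPkm2 libraries.

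Compared within replicate numbers, the Pkm level in siPkm2 was 14.4%, 19.7% and 18.5% of that in siNC for numbers 1, 2 and 3 (CPM, counts scaled to library size but not to length). The log2 fold change was -2.51 (SE 0.33, 95% interval -3.30 to -1.72), with a Benjamini-Hochberg adjusted p of 0.0738 by the quasi-likelihood test of edgeR. Blocked on the replicate number, the fit gave -2.53 (SE 0.13, 95% interval -2.86 to -2.19, adjusted p 0.00932, edgeR). The size was therefore the same in both edgeR fits, and of these only the blocked one passed an adjusted p of 0.05. DESeq2 without a block also called Pkm (log2 fold change -2.50, adjusted p 4.82e-11, Wald test). Without the siNC library numbered 2 the adjusted p of Pkm fell to 0.0495 without a block (edgeR), with a log2 fold change of -2.34. Leaving out any other single library raised it to between 0.141 and 0.386 (edgeR). With the block, the adjusted p was 0.0642 without number 1, 9.69e-05 without number 2 and 0.0799 without number 3 (edgeR). The counts are per gene and do not separate the PKM1 from the PKM2 transcripts. They were also fractional for Pkm in each library, so reads that fit near-identical copies could be divided between features.

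Pklr, the other pyruvate kinase gene, was listed at 0 counts in 5 libraries and at 1 count in siPkm2 3. A count of 0 allows up to 3 counts per library, which is 0.117 to 0.140 CPM. No change of Pklr could be measured at this depth. Among the processed pseudogenes of Pkm that also hold the siPkm2 #3 target, Gm6560 had 0 to 8.05 counts per library and Gm5216 had 0 in each.

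**Figure D1:**
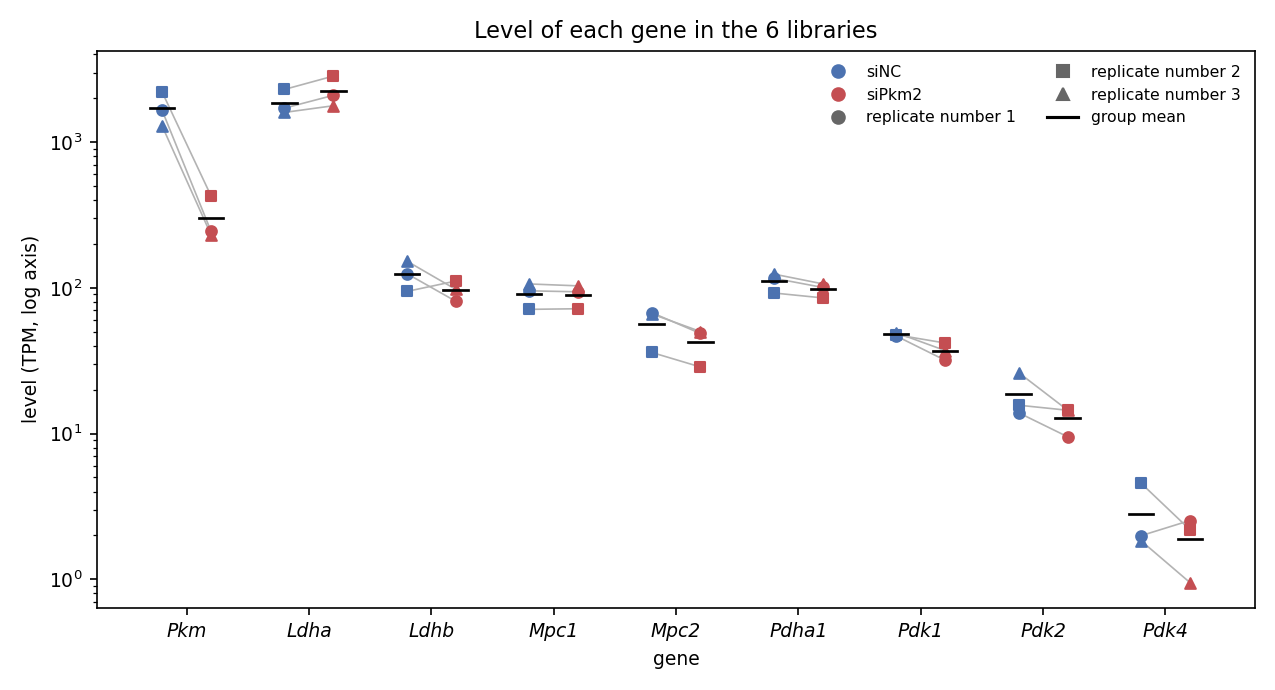
TPM (log axis) of 9 genes in each of the 6 libraries, blue for siNC and red for siPkm2, with replicate numbers as symbols joined by grey lines and group means as black bars (Pklr, at 0 to 0.03 TPM, is not drawn). The siPkm2 points of Pkm lie between 231 and 428 TPM, under the siNC points at 1293 to 2209, while Ldha stays at 1598 TPM or more in each library.

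By mean TPM, Ldha was first and Pkm was second in both groups, and only Ldhb and Pdha1 changed places. In siNC, mean TPM fell from Ldha (1868 ± 376, SD, n = 3) and Pkm (1719 ± 462) to Ldhb (124 ± 29.1), Pdha1 (111 ± 16.7), Mpc1 (90.9 ± 17.99), Mpc2 (56.7 ± 17.9), Pdk1 (47.8 ± 1.24), Pdk2 (18.6 ± 6.66) and Pdk4 (2.80 ± 1.54). The ranges of Ldha and Pkm overlapped, although Ldha was above Pkm within each of the 3 siNC libraries. Ldhb and Pdha1, Pdha1 and Mpc1, and Mpc2 and Pdk1 were neighbours whose ranges also overlapped.

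In siPkm2, Ldha (2236 ± 545 TPM, SD, n = 3) and Pkm (301 ± 110 TPM) no longer overlapped. Pdha1 (97.4 ± 10.9), Ldhb (96.6 ± 15.2) and Mpc1 (89.6 ± 16.1) followed with overlapping ranges, ahead of Mpc2 (42.5 ± 12.0), Pdk1 (36.9 ± 4.99), Pdk2 (12.8 ± 2.86) and Pdk4 (1.89 ± 0.832).

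Without the block, 0 of the 9 tested genes passed an adjusted p of 0.05 (edgeR quasi-likelihood), as did 0% of all 15269 genes, while 2 of the 9 (Pkm and Pdk1) and 2690 genes had an unadjusted p under 0.05. DESeq2 called Pkm alone of these genes, and 829 genes in all. With the replicate block, Pkm, Pdk1 and Mpc2 passed, all 3 lower in siPkm2. Of all genes 23.1% passed in that fit, 10.8% as lower, and 5.83% passed with a fold change over 2, which Pkm alone met here. The median log2 fold change of the 9 genes, Pkm included, was -0.43 without the block, against -0.02 over all genes tested. With the block these medians were -0.41 and -0.01.

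Ranges of the groups did not overlap for 2 of the 9 genes, Pkm and Pdk1, against 24.3% of all genes. In CPM, 6 of the 9 were lower in siPkm2 within each of the 3 replicate numbers, against 30.6% of all genes. These were Pkm, Pdha1, Pdk1, Pdk2, Pdk4 and Mpc2. Ldha was higher in siPkm2 within each number, and Ldhb and Mpc1 were mixed.

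**Figure D2:**
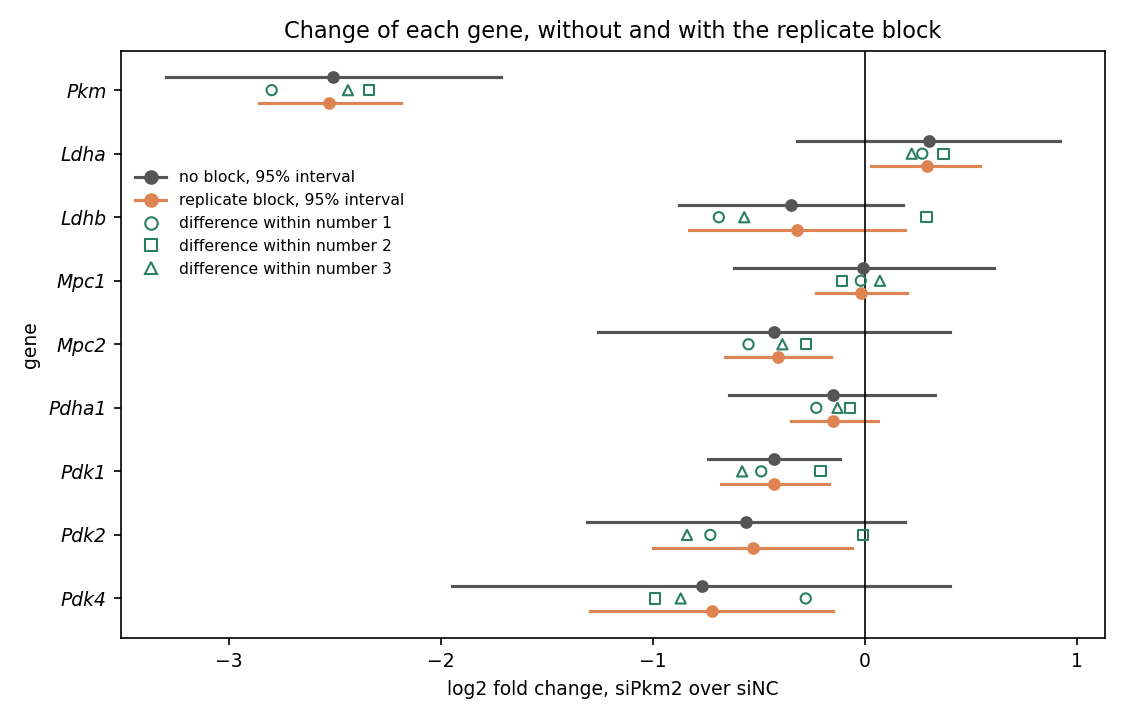
Log2 fold change of siPkm2 over siNC for 9 genes, with 95% intervals from the fit without (grey) and with (orange) the replicate block and the difference within each replicate number as open green symbols. Pkm lies near -2.5 in both fits, and the orange intervals of Pkm, Ldha, Mpc2, Pdk1, Pdk2 and Pdk4 do not reach 0, although Ldha, Pdk2 and Pdk4 did not pass the adjusted threshold.

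Of the lactate dehydrogenase subunits, Ldha encodes the muscle type subunit, commonly tied to lactate production, and Ldhb the heart type subunit. Ldha TPM was 1709, 2298 and 1598 in siNC 1 to 3 and 2094, 2838 and 1776 in siPkm2 1 to 3. The groups overlapped, with library 2 the highest of each, and within numbers siPkm2 was above siNC each time by 0.27, 0.37 and 0.22 on the log2 scale of CPM. The fitted log2 fold change of Ldha was 0.30 (95% interval -0.32 to 0.92, adjusted p 0.606, edgeR) without the block and 0.29 (0.03 to 0.54, adjusted p 0.0930, edgeR) with it. A difference of Ldha therefore did not pass the test in either fit.

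Ldhb TPM was 125, 94.4 and 153 in siNC 1 to 3 and 80.9, 111 and 97.6 in siPkm2 1 to 3. Replicate number 2 went the other way from the rest. Within numbers the log2 difference in CPM was -0.69 and -0.57 for numbers 1 and 3 and 0.29 for number 2. For Ldhb the log2 fold change was -0.35 (SE 0.22, adjusted p 0.467, edgeR) without the block and -0.32 (SE 0.20, adjusted p 0.285, edgeR) with it. With both libraries numbered 2 left out and the block kept, Ldhb was lower at -0.64 with an adjusted p of 0.00201 (edgeR). Left out in the same way, number 1 gave -0.14 (adjusted p 0.744, edgeR) and number 3 gave -0.19 (adjusted p 0.681, edgeR), so the size of the Ldhb difference rested on which number was absent. In the fit without number 2, on 2 libraries per group, 39.1% of all genes passed, and so did Pkm, Pdk1 (-0.54), Pdk2 (-0.80) and Mpc2 (-0.48).

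Mpc1 and Mpc2 form the carrier of the inner mitochondrial membrane as a heterodimer. Mpc1 TPM was 95.3, 71.1 and 106 in siNC 1 to 3 and 93.9, 71.9 and 103 in siPkm2 1 to 3. Libraries of one number lay close together and number 2 was the lowest of each group. Mpc1 had a log2 fold change of -0.01 (95% interval -0.62 to 0.61, adjusted p 0.992, edgeR) without the block and -0.02 (-0.23 to 0.20, adjusted p 0.883, edgeR) with it.

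Mpc2, the other subunit, had TPM values of 67.7, 36.1 and 66.3 in siNC 1 to 3 and 48.6, 28.6 and 50.1 in siPkm2 1 to 3. Both number 2 libraries were low, so that the groups overlapped, but siPkm2 was lower within each number, by 0.55, 0.28 and 0.39 on the log2 scale of CPM. For Mpc2 the log2 fold change was -0.43 (SE 0.35, adjusted p 0.573, edgeR) without the block and -0.41 (SE 0.10, 95% interval -0.66 to -0.16, adjusted p 0.0396, edgeR) with it. Without the block, leaving out siPkm2 replicate 2 gave -0.20 and leaving out siNC replicate 2 gave -0.69.

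Pdha1 encodes the catalytic alpha subunit of pyruvate dehydrogenase, the enzyme the kinases act on. Its TPM was 116, 92.1 and 124 in siNC 1 to 3 and 101, 85.3 and 106 in siPkm2 1 to 3. The groups overlapped, and the log2 fold change was -0.15 in both fits (adjusted p 0.755 without the block and 0.238 with it, edgeR, 95% interval with the block -0.35 to 0.06).

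Pdk1, a kinase gene known as a target of hypoxia-inducible factor, was the gene other than Pkm whose groups did not overlap. Its TPM was 46.7, 47.6 and 49.2 in siNC 1 to 3, with little spread, and 31.8, 41.8 and 37.1 in siPkm2 1 to 3. In CPM each siPkm2 library stayed under each siNC library, at 85.2 to 94.5 against 109 to 131. Its log2 fold change was -0.43 in both fits, with an adjusted p of 0.185 without the block and 0.0373 with it (edgeR, SE 0.13 and 0.10). By limma on log2(TPM + 1) with the block, Pdk1 did not pass (adjusted p 0.0807).

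Pdk2, a broadly expressed kinase gene, had TPM values of 13.9, 15.7 and 26.2 in siNC 1 to 3 and 9.51, 14.5 and 14.5 in siPkm2 1 to 3. The siNC library 3 was the highest, and number 2 showed almost no difference (-0.01 on the log2 scale of CPM, against -0.73 and -0.84 in numbers 1 and 3). The fold change of Pdk2 on the log2 scale was -0.56 (SE 0.31, adjusted p 0.407, edgeR) without the block and -0.53 (SE 0.19, adjusted p 0.0930, edgeR) with it. Without siNC replicate 3 and without the block it was -0.21.

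Pdk4, a kinase gene known to rise with fasting and fatty acid use, was the lowest of the 3 kinase genes. Its counts were 92, 224 and 86 in siNC 1 to 3 and 65, 117 and 45 in siPkm2 1 to 3, and the groups overlapped. TPM ranged from 1.84 to 4.57 in siNC and from 0.95 to 2.53 in siPkm2. The fold change of Pdk4 on the log2 scale was -0.77 (SE 0.49, adjusted p 0.464, edgeR) without the block and -0.72 (SE 0.23, adjusted p 0.0736, edgeR) with it. Without the block it was -0.21 without siNC replicate 2 and -1.11 without siPkm2 replicate 2, and on the log2(TPM + 1) scale of limma it was -0.37. The sign of its difference within number 1 depended on the unit, at -0.28 in CPM and 0.35 in TPM. The transcript length implied by count over TPM for Pdk4 was 0.62 of the gene's mean over the libraries in siPkm2 1 and 0.94 to 1.15 in the other libraries. That is a 1.87-fold range for a gene with few counts.

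Ratios within a library remove the library's own scale, and 6 were compared by an exact 2-sided permutation test, for which 3 against 3 libraries cannot give a p below 0.1. Ldha over Ldhb was 13.7, 24.3 and 10.5 in siNC 1 to 3 and 25.9, 25.5 and 18.2 in siPkm2 1 to 3. It was 0.60 higher in siPkm2 on the log2 scale (exact permutation p = 0.2, adjusted over the 6 ratios 0.6). The difference was 0.92 and 0.80 in numbers 1 and 3 and 0.07 in number 2, and the groups overlapped.

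Mpc1 over Mpc2 was 1.41, 1.97 and 1.60 in siNC and 1.93, 2.51 and 2.06 in siPkm2. It was higher in siPkm2 within each number by similar amounts (0.46, 0.35 and 0.36 on the log2 scale), while the groups overlapped (exact permutation p = 0.2, adjusted 0.6). Ldha over Pdha1 was also higher within each number (0.50, 0.42 and 0.38, exact permutation p = 0.4, adjusted 0.6). The summed TPM of Pdk1, Pdk2 and Pdk4 over that of Pdha1 was lower within each number, by 0.30, 0.10 and 0.33 (exact permutation p = 0.4, adjusted 0.6). The ratios of Pdk1 and of Pdk4 to Pdk2 differed by 0.12 and -0.05 (exact permutation p = 0.9 and 0.8, adjusted 0.9 for both).

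**Figure D3:**
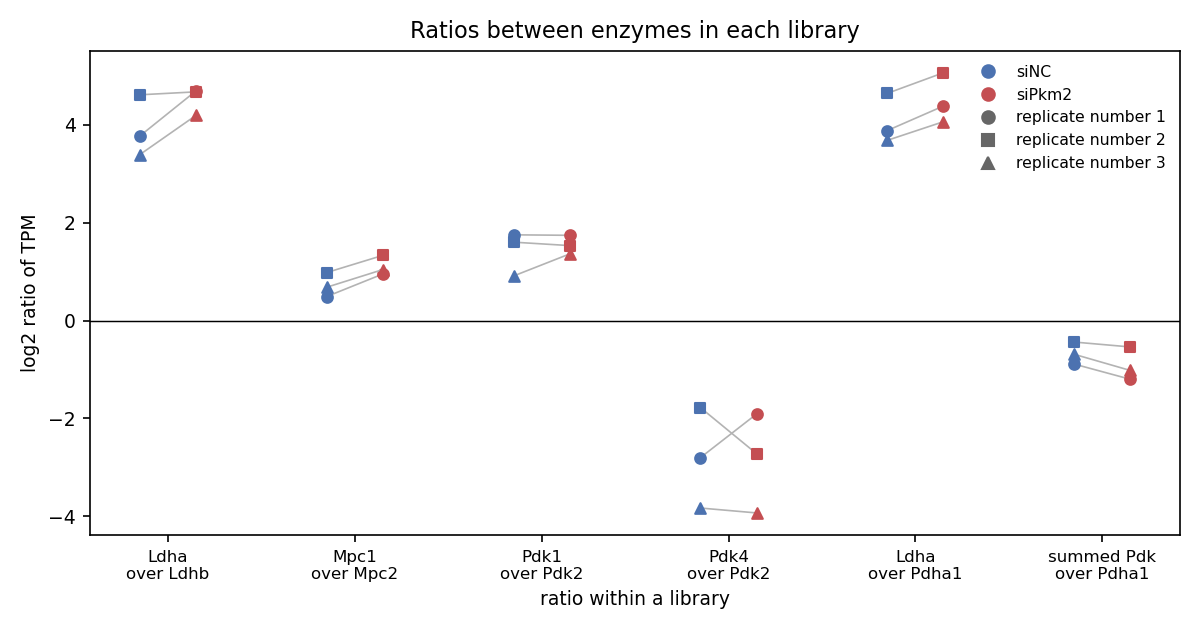
Log2 ratio of TPM between the named genes in each library, blue for siNC and red for siPkm2, with replicate numbers as symbols joined by grey lines (summed Pdk is Pdk1, Pdk2 and Pdk4). Ldha over Ldhb lies between 3.39 and 4.61 in siNC and between 4.19 and 4.69 in siPkm2, and the groups overlap in all 6 ratios.

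The seed of an siRNA guide can pair with short sites in the 3′ UTR of other mRNAs, as the seed of a miRNA does. The site complementary to bases 2 to 8 of the siPkm2 #3 guide, GAGAAAC, was searched on the mRNA strand of the longest annotated 3′ UTR of each gene (GENCODE M21, GRCm38). Of the 10 genes, 3 held it, namely Pdk1 with 2 sites and Pdk2 and Mpc2 with 1 each, and 17.9% of the 13273 tested genes with an annotated 3′ UTR held it. The sites are given 5′ to 3′ with the match in capitals.
Pdk1, site 1: gcttacaaGAGAAACgttagtcc
Pdk1, site 2: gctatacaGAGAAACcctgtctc
Pdk2: tctctgtgGAGAAACcctagggg
Mpc2: gacctgcaGAGAAACtcagcaca

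The sites begin at bases 670 and 2360 of the 3734-base UTR of Pdk1, base 186 of 924 in Pdk2 and base 56 of 304 in Mpc2. With the block, the log2 fold changes of these 3 genes were -0.43, -0.53 and -0.41, and those of the 6 tested genes without a site ranged from -2.53 for Pkm, through -0.72 for Pdk4, to 0.29 for Ldha. Of the 3 genes with a site, Pdk1 and Mpc2 passed with the block and Pdk2 did not (adjusted p 0.0930, edgeR). Of the 6 without one, Pkm passed, and Pdk4 (-0.72), Ldhb (-0.32), Pdha1, Mpc1 and Ldha did not. A match is only a description, longer UTRs hold more matches by their length, and a part of the seed in the levels was not tested. For the other strands, the site of siPkm2 #1 (TGTACCA, in 11.7% of genes) was found in Pdha1 once, and those of siPkm2 #2 (AAGAATG, 17.4%) and siNC (TGTCACG, 3.51%) in none of the 10.

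**Figure D4:**
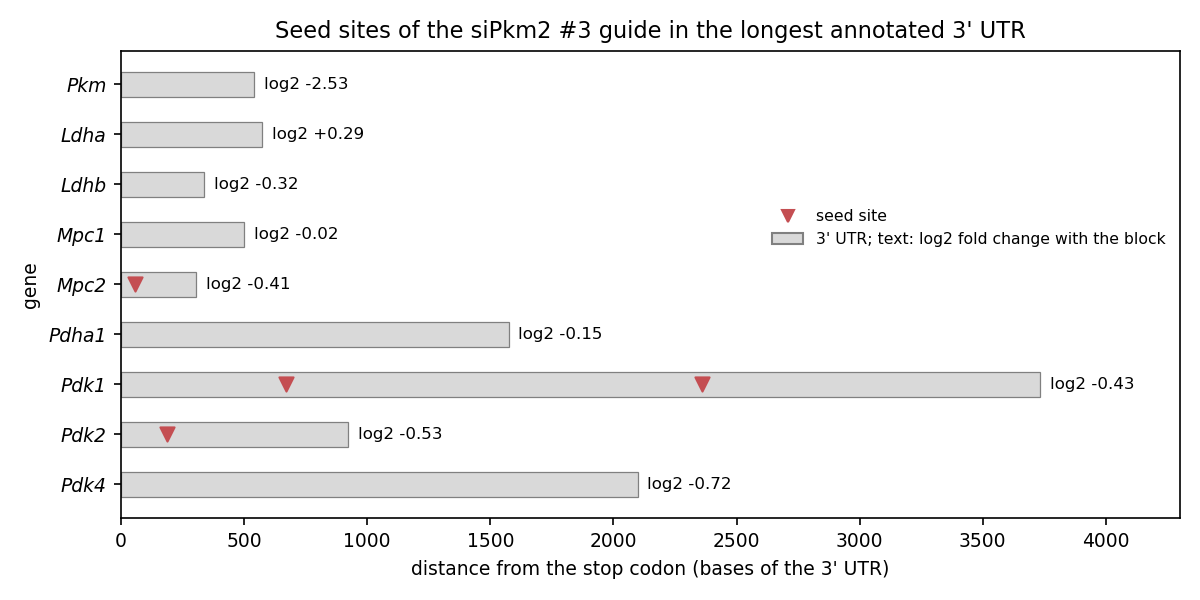
Grey bars show the longest annotated 3′ UTR of each gene in bases from the stop codon, red triangles the sites of the siPkm2 #3 seed, and the text beside each bar the log2 fold change with the replicate block. Pdk1 has 2 sites and Pdk2 and Mpc2 have 1 each, at log2 fold changes of -0.43, -0.53 and -0.41.

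Other genes of pyruvate handling did not move as one group. Of 22 further genes on a list of pyruvate enzymes and transporters, 21 were found and 19 tested. Without the block 0 passed, and with it 5 did, 4 higher and 1 lower (edgeR, background 23.1% of all genes). The genes that were higher were Slc16a1, which encodes a monocarboxylate transporter (0.74, adjusted p 0.0340), and 3 genes for parts of the pyruvate dehydrogenase complex, Pdhx (0.57, 0.0191), Dld (0.33, 0.0347) and Pdhb (0.30, 0.0491). Dlat, for another part of that complex, did not pass (0.22, adjusted p 0.12, edgeR with the block), and neither did Pdha1 (-0.15). The median log2 fold change of the list was 0.05.

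The gene that was lower was Pdp1, which encodes a phosphatase that reverses the action of the kinases on pyruvate dehydrogenase. Its TPM was 52.9, 25.5 and 70.0 in siNC 1 to 3 and 13.5, 19.1 and 21.2 in siPkm2 1 to 3. Each siPkm2 library was under each siNC library, and the log2 fold change was -1.52 (SE 0.38, adjusted p 0.145, edgeR) without the block and -1.42 (SE 0.31, adjusted p 0.0321, edgeR) with it. Pdp1 holds 2 sites of the siPkm2 #3 seed. The fourth kinase gene, Pdk3, had a log2 fold change of 0.05 without the block. The alanine transaminase gene Gpt, also with 2 sites of that seed, had one of -0.61 and Pdp2 one of -0.09. None of these passed.

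Of 19 genes for the glycolytic steps before pyruvate kinase, 17 were tested, with a median log2 fold change of 0.14. Without the block 0 passed and with it 5 did (edgeR), against 23.1% of all genes. The enolase gene Eno1, whose product makes the substrate of pyruvate kinase, was higher (0.59, adjusted p 0.0373), as were Pgam1 (0.36, 0.0381) and Pfkp (0.46, 0.0207). The phosphofructokinase gene Pfkm (-0.68, 0.0169) and the enolase gene Eno2 (-0.47, 0.0455) were lower.

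Over both lists, 2 of the 3 genes that passed as lower held a siPkm2 #3 seed site (Pdp1 and Eno2), against 0 of the 7 that passed as higher and 5 of the 26 that did not pass. Of those 5, Gpt held 2 sites (log2 fold change -0.65 with the block). Pdp2 (-0.11), Aldoc (-0.18), Gpi1 (0.10) and Pfkl (0.15) held 1 each. These counts carry no test, and 17.9% of the tested genes with an annotated 3′ UTR held the site. The share among all genes that passed as lower was not computed. Sites of the siPkm2 #1 seed lay in Slc16a1 and Pgam1, which passed as higher, and in Eno2, which passed as lower. A siPkm2 #2 site lay in Pdhb, which passed as higher.

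The genes whose log2 CPM followed Pkm most closely over the 6 libraries were Syde1 and Zfp426 (Pearson r 0.996 each), Hacd4 (0.994), Katnal1 (0.993) and Dennd6b (0.992). The correlations are a description over 6 libraries that share the difference between the groups. Among the other 8 genes tested of the 10 described here, r with Pkm was highest for Pdk1 (0.876) and Pdk4 (0.703) and lowest for Mpc1 (-0.191) and Ldha (-0.306). With the block, log2 fold changes were -0.97 for Syde1, -0.44 for Zfp426, -1.35 for Hacd4, -0.90 for Katnal1 and -0.48 for Dennd6b. A gene picked for following Pkm differs between the groups by that choice, so no p is given for these.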

How the data were processed

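Bulk RNA-seq of 3 siNC and 3 siPkm2 libraries was used. The authors deposited estimated counts per gene, not normalized (86.2% to 88.7% of all values, zeros included, whole within 0.005), and TPM values, which the authors scaled within each library. The submitters' processing notes name mm9 and edgeR without a role, and DESeq2 stands in the name of the deposited table. The aligner and counter are not given in the sources used here. The deposited columns of group means, fold changes, p-values and adjusted p-values were not used. Estimated counts were rounded, filtered with filterByExpr, scaled with TMM factors and tested across 15269 genes with edgeR 4.0.16 in R 4.3.3 (quasi-likelihood, 2-sided, Benjamini-Hochberg, called under 0.05), without a block and blocked on the replicate number. These numbers come from the sample titles and are taken to pair the libraries because the deviations of all 3 same-numbered pairs correlated (r 0.66, 0.76 and 0.65). DESeq2 1.42.0 and limma 3.58.1 on log2(TPM + 1), a pseudocount of 1, were alternatives. The scripts were tested on simulated data. No 2 libraries of one group were duplicates, as at least 50.6% of genes differed beyond sampling noise in each pair within a group. Pairs across the groups were not checked. The members and lists were chosen with earlier results of these data known. Named genes outside the members were those called with the block and the 3 largest changes of each list. The 5 genes most like Pkm were added. Pdk3, Dlat, Pdp2, Aldoc, Gpi1 and Pfkl were chosen after their values were seen. One gene that this rule names is not reported here. For Aldoa, on 2 rows, the row with the higher total was used.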

Additional observations from a re-analysis of the deposited data

How the results depend on the processing

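The number of the 9 genes called was 0 without the block and moved with the test. It was 1 with the block and a fold over 2 and 1 with DESeq2, against 890 of 15269 and 829 of 28059 of all genes. With limma on TPM and the block it was 2, against 1680 of 14229. It was 3 with the block and 3 with the block and DESeq2 size factors (RLE), against 3524 and 3556 of 15269. With the block and both number 2 libraries left out it was 5, against 5941 of 15185. Leaving out 1 library at a time without the block gave 0 to 1, the 1 being Pkm without siNC replicate 2. In that fit 105 of 15589 genes passed. With the block and both libraries of number 1 or of number 3 left out, 0 were called, as were 0 genes of all (3937 and 3598 genes at an unadjusted p under 0.05, edgeR). The log2 fold change of Pkm passed at -2.50 with DESeq2, -2.53 with the replicate block, -2.52 with the block and RLE factors, -2.53 with limma and the block and -2.63 without number 2, and ranged from -2.80 to -2.34 when 1 library was left out. The direction of Pkm, Ldha, Ldhb, Pdha1, Pdk1, Pdk2, Pdk4 and Mpc2 held in each alternative, but with 1 library left out sizes ranged from -1.11 to -0.21 for Pdk4, -0.73 to -0.21 for Pdk2, -0.69 to -0.20 for Mpc2 and -0.54 to -0.20 for Ldhb. That of Mpc1 did not, at 0.00 with DESeq2, 0.02 with the block without number 2, and -0.17 to 0.19 with 1 library left out. The log2 ratio of Pdk4 over Pdk2 was 0.11 with a pseudocount of 1 TPM and -0.56 to 0.49 with 1 library left out, and that of Pdk1 over Pdk2 -0.13 to 0.29. For the ratios the block could not move a difference, because the mean of the within-number differences equals the difference of the group means (Ldha over Ldhb 0.60). Exact sign flips over 3 pairs cannot give a p under 0.25. The cause of these moves was not tested. The fits without number 1 or 3, limma with the block and the block on the ratios were chosen after seeing the data. Pdk4 at 45 to 224 counts and Pklr at 0 to 1 count are limited by depth.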
